A study of Mus musculus with 69 samples.

Results

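The type I interferon-stimulated genes described here were 39 genes taken by name, and all 39 were found by symbol among the 24309 gene symbols of the CD8+ and CD4+ count tables and in the table of transduced cells. Poly(A) RNA sequencing had been performed on mouse T cells sorted from pooled lymph nodes and spleen as naive (Tnv, CD44 low and CD62L high), central memory (Tcm, CD44 high and CD62L high) or effector memory (Tem, CD44 high and CD62L low) cells. WT mice were Stat5a+/+ Stat5b+/+, AAB mice were Stat5a-/- Stat5b+/- and BBA mice were Stat5a+/- Stat5b-/-, so that each mutant group kept 1 allele of 1 paralog in all cells of the body. CD8+ Tnv and Tcm cells were compared without cytokine (NC), with IL-7 or with IL-15, CD8+ Tem cells in the presence or absence of IL-15, and CD4+ Tnv cells without cytokine or with IL-7. Each CD8+ group held 2 libraries, and each CD4+ group held 2 or 3. In a separate experiment naive CD8+ cells of AAB mice were activated through the T cell receptor and CD28, grown in IL-2 and transduced with a retrovirus carrying GFP alone (control, 2 libraries) or with constitutively active STAT5A (CA-STAT5A, 2 libraries), after which GFP+ cells were sorted. The labels give neither age nor sex, and they describe the no cytokine libraries as cultured whereas the study's methods describe them as taken directly after isolation, so the effects of cytokine and of culture cannot be told apart here.

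Type I interferons bind the receptor formed by Ifnar1 and Ifnar2, and the kinases Jak1 and Tyk2 then activate transcription factors that bind the interferon-stimulated response element in promoters of the genes described here. Their products sense viral RNA, cut or sequester it, block virus entry or release, tag proteins with ISG15, or raise the next round of signalling, as IRF7 does. T cells hold many of them at a low steady level even without infection. IL-7 and IL-15 signal instead through the common gamma chain, and mainly through STAT5A and STAT5B, which bind a different element, the gamma-activated sequence.

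By GENCODE vM21 annotation of build GRCm38, 15 of the 39 genes lay in 6 clusters, counting neighbours up to 200000 bases apart. These were Ifit2, Ifit3 and Ifit1 (chr19:34550694-34650009), Oas2, Oas3 and Oas1a (chr5:120730333-120907521), Oasl2 and Oasl1 (chr5:114896936-114937915), Mx1 and Mx2 (chr16:97447035-97560900), Parp14, Dtx3l and Parp9 (chr16:35832874-35972605), and Rsad2 with Cmpk2 (chr12:26442746-26479837). Zbp1 lay at chr2:173206612-173218923, Irf7 at chr7:141262706-141266481, Irf9 at chr14:55603571-55610030, Rtp4 at chr16:23520291-23614222 and Ly6e at chr15:74955051-74959905. Exons of Parp9 and Dtx3l overlapped by 458 bases on opposite strands, and whether the counting used strand is not given in the sources used here, so reads of this overlap are of uncertain origin. The submitters' processing notes name build mm9 and the study's methods name mm10, and the count tables hold no coordinates.

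RefSeq promoters of build GRCm38.p6 were matched for 29 of the 39 genes. The core of the interferon-stimulated response element, searched on both strands as GAAA, 2 bases of any kind and GAAA, in the 250 bases before the start, was found in 8 of the 29 (27.6%) and in 936 of all 27025 genes with a promoter (3.46%). The gamma-activated sequence TTCNNNGAA was found in 5 of the 29 (17.2%), namely Ifit2, Eif2ak2, Isg20, Oas1a and Bst2, and in 2197 of the 27025 genes (8.13%). The 2 motifs were searched separately, and in Bst2 and Oas1a both were present. The windows below show the response element in 6 genes whose values are given further on, with the matched bases in capitals (TTTC, 2 bases and TTTC are the same motif read from the other strand).
Ifit1 (chr19:34640775-34640804, plus strand): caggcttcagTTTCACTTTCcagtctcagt
Ifit3 (chr19:34583363-34583392, plus strand): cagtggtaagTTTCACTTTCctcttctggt
Isg15 (chr4:156200865-156200894, minus strand): aaaggaaaccGAAACAGAAAatagctctgg
Oas3 (chr5:120777715-120777744, minus strand): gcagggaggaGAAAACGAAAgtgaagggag
Rsad2 (chr12:26456553-26456582, minus strand): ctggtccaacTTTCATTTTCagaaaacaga
Bst2 (chr8:71537577-71537606, minus strand): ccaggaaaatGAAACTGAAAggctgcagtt
Oas1a and Trim30a were the other matches. Zbp1 and Rtp4, which differed strongly between genotypes with IL-7, had no matched promoter, and the windows of Irf7, Irf9 and Xaf1 held neither run of letters.

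Library totals ran from 5926139 to 25612758 counts in the 48 CD8+ libraries, from 6705004 to 34118295 in the 15 CD4+ libraries and from 11020965 to 16516525 in the 4 transduced ones. CPM below means counts over the TMM-normalised total of the library, set to the usual common size. Stat5a was at 0.970 to 4.91 CPM in AAB CD8+ libraries against 32.7 to 107 CPM in WT, which left no overlap, as in CD4+ libraries (0.811 to 1.89 against 33.8 to 87.5 CPM). Stat5b counts remained in BBA cells, at 49.1 to 94.1 CPM in CD8+ libraries against 165 to 353 CPM in WT and 78.8 to 141 CPM in AAB, which keeps 1 allele, so that BBA lay below WT and overlapped with AAB. In CD4+ libraries Stat5b was at 95.2 to 135 CPM in BBA, 138 to 203 CPM in AAB and 273 to 374 CPM in WT. Total counts of Stat5b therefore do not by themselves show the absence of a working transcript in BBA cells. By Xist and Y-linked genes all 6 CD8+ Tnv libraries with IL-7 were male, whereas those without cytokine or with IL-15 were female, and all CD4+ libraries were male. The WT Tcm libraries with IL-7 stood apart from each other, as given below. Cd8a and Cd8b1 together reached 1.71 to 4.73 CPM in the 4 transduced libraries, against 1888 to 2257 CPM in CD8+ Tnv cells with IL-7, so the defining markers of CD8+ T cells were near 0 in the transduced cells, where NK cell markers summed to 3256 to 3627 CPM.

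In WT naive cells without cytokine the genes were spread over a wide range of levels per length of exon. Bst2 (tetherin, which holds budding viruses at the membrane) was highest in CD8+ cells at 74.8 to 92.4 CPM per kb, followed by Samd9l at 63.4 to 63.5 and Lgals3bp (a secreted galectin-binding protein) at 51.3 to 55.3 CPM per kb. Ly6e, a GPI-anchored surface protein, was highest in CD4+ cells at 110.3 to 167 CPM per kb, above Samd9l at 78.2 to 84.3. Epsti1 and Ly6e, next in the CD8+ order at 38.1 to 40.4 and 35.8 to 41.5 CPM per kb, overlapped and were not separated by their spread. Mx1, Mx2, Rsad2, Ifi44, Oasl2 and Ifitm3 were at or under 3.06 CPM per kb in every one of these WT naive libraries, so that small count numbers stand behind their changes.

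**Figure D1:**
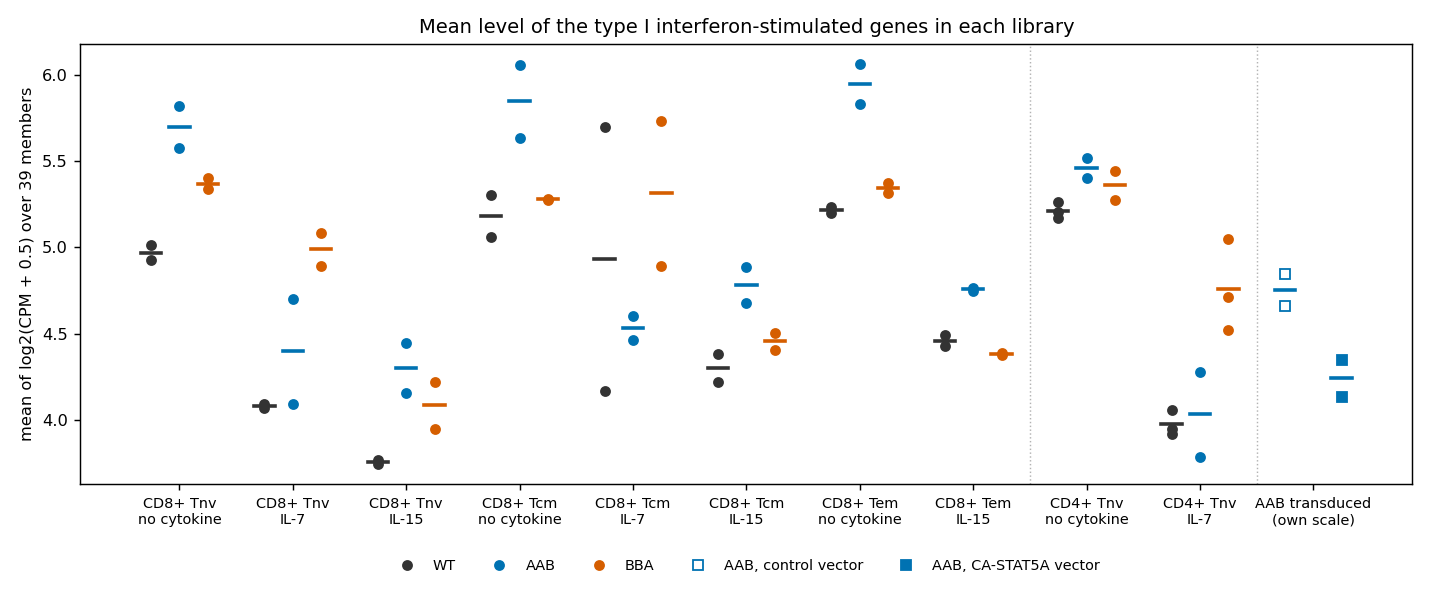
Mean over the 39 genes of log2(CPM + 0.5) in each library (points, 1 per library), with bars for the group mean; WT, AAB and BBA are coloured, and the transduced cells are on their own scale. WT levels were lower with cytokine than without in naive cells, from 4.97 to 4.08 with IL-7 and to 3.76 with IL-15 in CD8+ cells, and BBA libraries with IL-7 (4.90 and 5.08) lay above both WT libraries (4.07 and 4.10).

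The first question was how these genes stood in WT cells with and without cytokine. Most of them were lower with IL-7 or IL-15 than without cytokine in naive cells, and the change was largest for genes such as Mx1, Mx2, Cmpk2 and Oas2. A gene was called when the fold change exceeded 1.5 and the adjusted p was below 0.05, where all adjusted p-values are those of the quasi-likelihood test of edgeR, adjusted by the Benjamini-Hochberg method over all genes tested. In CD4+ Tnv cells with IL-7, 29 of 38 tested genes fell and 0 rose, at a median log2 fold change of -1.09, while 16.8% of all genes tested were called in either direction. The median of all genes lay between -0.029 and 0.032 in each comparison of this report. In CD8+ Tnv cells with IL-7, 19 of 34 fell and 1 rose (median -0.78, all genes 20.3%), and with IL-15 22 of 34 fell and 0 rose (median -1.11, all genes 6.15%). Leaving out 1 library at a time gave 29 calls in CD4+ cells each time and left 11 to 14 in CD8+ cells with IL-7, whereas for IL-15 it left 4 without WT NC replicate 2, 8 without WT NC replicate 1 and 23 or 24 without either IL-15 library. The value without IL-15 replicate 2, which held CD4 lineage markers as given further on, was 23. With IL-7 in CD8+ Tnv cells, the cytokine and the sex of the mice cannot be told apart, and in these bulk samples fewer cells with a transcript and less of it per cell cannot be told apart either.

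By role, the Mx GTPase genes, of which Mx2 is annotated as a polymorphic pseudogene, fell in each of the 3 naive comparisons with 2 of 2 called. The oligoadenylate synthetase family, with the related Oasl1 and Oasl2, fell with 5 of 5 tested in CD4+ cells and with 3 of 3 in CD8+ cells with either cytokine. All 3 RNA sensors (Ddx58, the gene of RIG-I, with Ifih1 and Dhx58) fell in CD4+ cells with IL-7 and in CD8+ cells with IL-15, and 2 of 3 did in CD8+ cells with IL-7. Parp9, Parp12, Parp14 and Dtx3l, the ADP-ribosyltransferases and their partner, had fold changes under the 1.5-fold limit with IL-7 in both lineages (log2 -0.50 to 0.21 in CD8+ and -0.55 to -0.19 in CD4+ cells), and 1 of the 4, Parp12, fell with IL-15 (-0.99, SE 0.14).

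Mx1 was at 3.76, 4.69 and 3.07 CPM in WT CD4+ cells without cytokine and at 0.150, 0.353 and 0.461 CPM with IL-7. The 2 groups did not overlap, and the log2 fold change was -3.43 (SE 0.43, edgeR adjusted p = 4.18e-04). Irf7, the factor that drives interferon gene expression, was at 93.1, 97.5 and 78.2 CPM without cytokine and at 25.9, 30.8 and 32.2 CPM with IL-7 (log2 fold change -1.58, SE 0.12). In CD8+ cells Irf7 went from 86.9 and 89.8 CPM without cytokine to 29.8 and 26.6 CPM with IL-7 and to 23.6 and 28.6 CPM with IL-15, again without overlap. Cmpk2, a mitochondrial nucleotide kinase, showed the largest called decrease with IL-7 in CD8+ cells (log2 fold change -3.81, SE 0.54), from 8.73 and 11.5 CPM to 0.595 and 0.863 CPM. Ly6e differed between lineages: it was higher with IL-7 in CD8+ cells (157 and 135 CPM without, 282 and 231 CPM with IL-7, log2 fold change 0.79, SE 0.18, edgeR adjusted p = 0.0173) and lower in CD4+ cells (633, 462 and 417 CPM without, 281, 275 and 189 CPM with IL-7, log2 fold change -1.02, SE 0.19).

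Memory cells differed from this in the number of calls. In WT Tem cells with IL-15, 6 of 34 genes fell (median log2 fold change -0.65, all genes 1.53%), led by Cmpk2 at -1.97 (SE 0.15) and Mx1 at -1.89 (SE 0.20), with 0 left without either NC library and 17 or 20 without either IL-15 library. In WT Tcm cells with IL-15 the median was -0.75, and edgeR called 0 of 39 genes, with 2 higher and 9 lower at an unadjusted p under 0.05 and 3 lower by DESeq2, in a comparison in which 0% of all genes were called. In WT Tcm cells with IL-7 edgeR and DESeq2 called 0 of 39 and 0 passed at an unadjusted p under 0.05 (median 0.07, all genes 0.381%). There the 2 libraries disagreed: replicate 1 held 111 CPM of Irf7, 36.7 of Ifit3 and 33.6 of Isg15, and replicate 2 held 24.5, 5.53 and 1.91 CPM. Without IL-7 replicate 1, 14 genes fell (median -0.84), and without IL-7 replicate 2, 1 rose and 0 fell (median 0.39). Both libraries were male, and their myeloid markers summed to 427 to 752 CPM. The part of these markers in the result was not tested.

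The next question was how the same genes stood with IL-7 in BBA cells, which lack Stat5b and 1 allele of Stat5a. In naive CD8+ cells with IL-7 BBA libraries held more of them than WT libraries did, and 9 of 33 tested genes rose and 0 fell. The 9 were Irf7 and Irf9, the RNA and Z-form nucleic acid sensors Ddx58 and Zbp1, the RNA-binding Ifit3, the partners Parp9 and Dtx3l, the transmembrane chaperone Rtp4 and the pro-apoptotic Xaf1. Over the 33 genes 29 fold changes were positive and 4 negative, with a median log2 fold change of 0.83. Among all genes tested 2.69% were called, 8.79% were higher and 9.25% were lower at an unadjusted p under 0.05, against 23 higher and 0 lower of the 33. Leaving out either WT library left 0 calls and leaving out either BBA library left 1, while the median of the 33 stayed between 0.66 and 0.81.

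Zbp1 was at 50.4 and 53.2 CPM in WT, 121 and 90.6 CPM in AAB and 214 and 199 CPM in BBA CD8+ Tnv cells with IL-7. The 3 groups did not overlap and BBA was highest, with a log2 fold change over WT of 1.97 (SE 0.17, edgeR adjusted p = 0.00692). Irf7 was ordered in the same way, at 29.8 and 26.6 CPM in WT, 61.3 and 45.6 CPM in AAB and 100.2 and 89.5 CPM in BBA (log2 fold change of BBA over WT 1.73, SE 0.18, edgeR adjusted p = 0.0103). Irf9, which binds the interferon-stimulated response element, was at 97.3 and 112 CPM in WT, 144 and 142 CPM in AAB and 176 and 202 CPM in BBA (log2 fold change 0.83, SE 0.12, edgeR adjusted p = 0.0243). BBA cells with IL-7 were also above WT cells without cytokine for Zbp1 (121 and 111 CPM) and Irf9 (135 and 123 CPM), whereas for Irf7 (86.9 and 89.8 CPM) these groups overlapped.

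Rtp4 was at 9.18 and 12.9 CPM in WT, 42.0 and 19.0 CPM in AAB and 75.9 and 59.3 CPM in BBA (log2 fold change of BBA over WT 2.60, SE 0.40, edgeR adjusted p = 0.0277). Ifit3 showed the largest called increase at 3.02 (SE 0.48, edgeR adjusted p = 0.0314), from 2.81 and 2.49 CPM in WT to 25.2 and 18.4 CPM in BBA, with AAB at 12.7 and 4.93 CPM. In both genes AAB libraries lay between the others but far from each other. Dtx3l was at 187 and 196 CPM in WT, 292 and 212 CPM in AAB and 383 and 355 CPM in BBA (log2 fold change 0.92, SE 0.17, edgeR adjusted p = 0.0423). The smallest called increase was that of Ddx58, from 119 and 125 CPM to 191 and 210 CPM (0.70, SE 0.10). Larger fold changes were not called where replicates were far apart, as for Cmpk2, which was at 0.595 and 0.863 CPM in WT and at 9.86 and 4.16 CPM in BBA (log2 fold change 3.25).

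Xaf1 lies at chr11:72301629-72313733, on the chromosome that also carries Stat5a, Stat5b and the members Trim25, Dhx58, Ifi35 and Lgals3bp. Whether position plays a part was not tested. Of these members only Xaf1 was called in AAB over WT with IL-7, and it was the only member called higher there. It was at 15.4 and 16.9 CPM in WT, 103 and 72.2 CPM in AAB and 44.4 and 47.8 CPM in BBA CD8+ cells, so that AAB was highest (log2 fold change of AAB over WT 2.44, SE 0.20, edgeR adjusted p = 0.0136, and of BBA over WT 1.49, SE 0.19). Oasl2 was unsteady between cultures and replicates. In naive CD8+ cells without cytokine it had 243 and 183 counts in AAB against 64 and 15 in WT. With IL-15 it had 17 and 27 against 7 and 5. WT Tcm cells with IL-7 held 26 and 1. In Tnv cells with IL-7 it passed the filter on low counts (over 55.4 normalised counts in any library) only through BBA. The counts were 132 and 145 in BBA and 36 and 32 in WT libraries, so its calls there rest on the group in which it was high. In the AAB Tnv libraries with IL-7 Oasl2 was at 0 counts in both, against 68 counts in the WT libraries (3.06 CPM) and 277 in the BBA libraries (10.5 CPM). With 3 counts over both libraries of the group as the floor, this is at least 26.0-fold lower than WT and at least 89.3-fold lower than BBA. These were the 2 calls of AAB over WT among 33 genes (all genes 0.256%, median log2 fold change 0.37), and their number ranged from 0 without either WT library to 9 without AAB replicate 2. With the replicate number of the labels as a further term of the fit (replicate block) 4 were higher and 1 lower. Against BBA, AAB cells had 1 call, Oasl2, with 1 higher and 15 of 33 lower at an unadjusted p under 0.05 and a median of -0.46 (all genes 0.148%), and 3 were lower under the replicate block. The comparisons of AAB and of BBA with WT share their WT libraries.

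**Figure D2:**
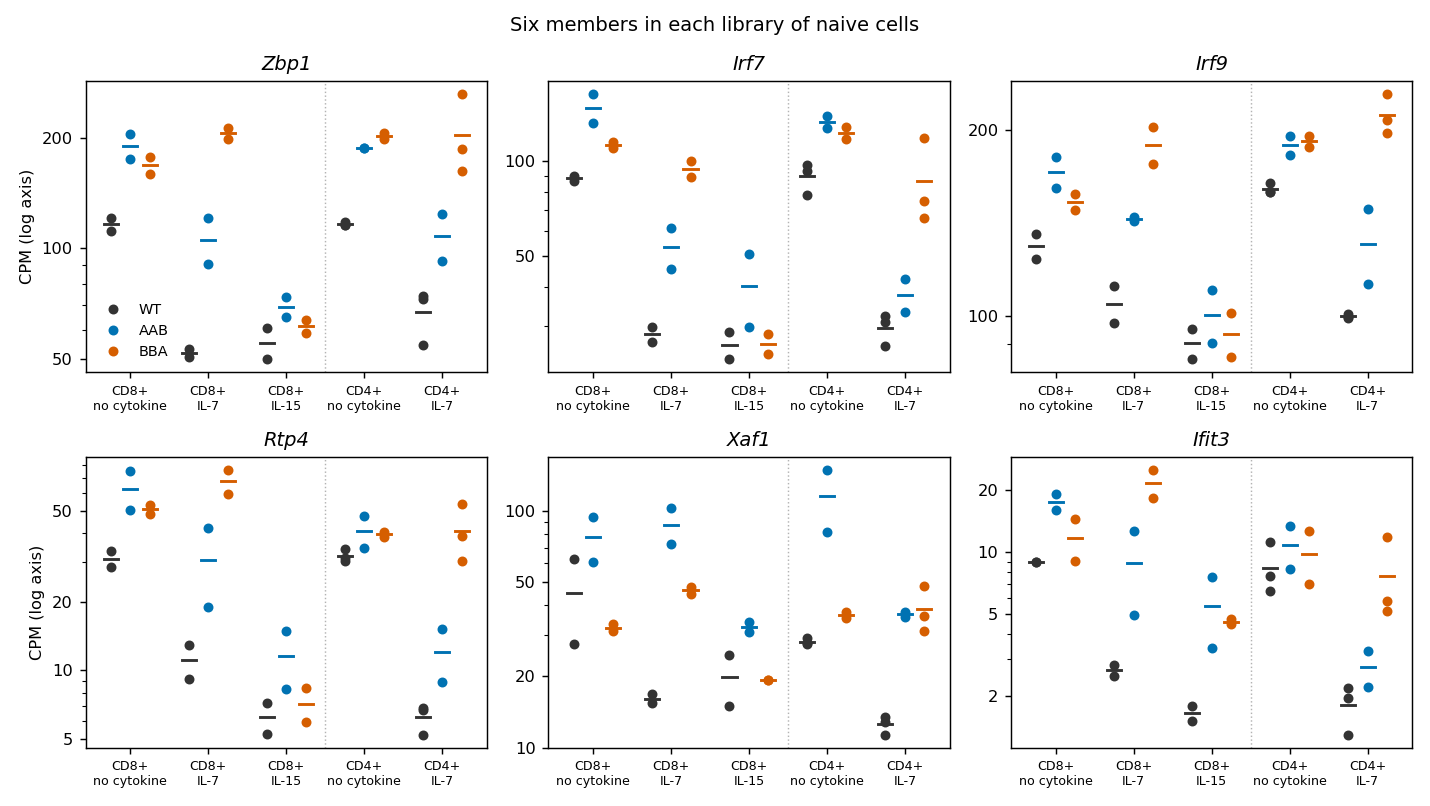
CPM (log axis) of Zbp1, Irf7, Irf9, Rtp4, Xaf1 and Ifit3 in each naive library (points) with the group mean (bars), by lineage and cytokine. With IL-7 the BBA points lie above the WT points in each panel, for Zbp1 at 214 and 199 CPM against 50.4 and 53.2 CPM in CD8+ cells, whereas with IL-15 BBA and WT overlap for Zbp1, Irf7, Irf9, Rtp4 and Xaf1.

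Naive CD4+ cells with IL-7, in which the same groups were compared in other libraries, also held more of these genes in BBA. Of 33 tested genes 15 rose in BBA cells and 1, Eif2ak2, fell (median log2 fold change 0.65), where 5.51% of all genes were called. At an unadjusted p under 0.05, 27 were higher and 2 lower of the 33, against 13.9% higher and 13.4% lower of all genes. Besides Irf7, Irf9, Zbp1, Ifit3, Rtp4, Xaf1, Parp9 and Dtx3l, those that rose were Ifit1, Oas3, Parp14, Cmpk2, Ifi44, Lgals3bp and Samd9l. Of these, Ifit3, Cmpk2 and Ifi44 passed the filter on low counts only through BBA libraries, which reached 11.9, 8.36 and 16.5 CPM. Their highest WT levels were 2.18, 2.24 and 2.77 CPM, so their calls rest on the group in which they were high. All libraries were male. Leaving out 1 library gave 9 calls (without WT replicate 1 or 3) to 17 (without BBA replicate 3), all higher except 1 in 1 refit.

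Rtp4 had the largest fold change, from 5.24, 6.85 and 6.73 CPM in WT to 38.8, 53.9 and 30.1 CPM in BBA (log2 fold change 2.68, SE 0.26, edgeR adjusted p = 3.70e-04), with AAB at 15.2 and 8.95 CPM. Irf9 was at 99.4, 99.1 and 100.5 CPM in WT, 149 and 113 CPM in AAB and 208, 228 and 197 CPM in BBA (1.09, SE 0.10, edgeR adjusted p = 2.60e-04). Irf7 was at 25.9, 30.8 and 32.2 CPM in WT, 42.3 and 33.1 CPM in AAB and 74.6, 119 and 66.2 CPM in BBA (1.54, SE 0.22, edgeR adjusted p = 0.00239). For these 3 genes no library of 1 genotype overlapped with another genotype, and BBA was highest. Zbp1 was at 54.5, 73.9 and 72.9 CPM in WT, 125 and 92.4 CPM in AAB and 162, 263 and 187 CPM in BBA (1.599, SE 0.20). Dtx3l was at 139, 151 and 140.5 CPM in WT and 239, 281 and 253 CPM in BBA (0.85, SE 0.07), while AAB libraries at 154 and 148 CPM overlapped with WT. Ifit3 stayed low in counts, from 1.95, 2.18 and 1.29 CPM to 5.79, 11.9 and 5.20 CPM (2.05, SE 0.42).

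Eif2ak2, the kinase PKR that halts translation on double-stranded RNA, went the other way. It was at 31.1, 32.7 and 34.1 CPM in WT, 21.9 and 29.1 CPM in AAB and 24.6, 12.3 and 13.1 CPM in BBA CD4+ cells with IL-7 (log2 fold change of BBA over WT -0.96, SE 0.24, edgeR adjusted p = 0.0362). Without cytokine it was at 34.8, 32.1 and 30.5 CPM in WT, 17.8 and 26.3 CPM in AAB and 13.3 and 14.3 CPM in BBA (-1.23, SE 0.17, edgeR adjusted p = 0.0129). In CD8+ Tnv cells with IL-15 the same gene was higher in BBA, at 52.8 and 43.0 CPM against 29.7 and 24.2 CPM (0.86, SE 0.21, edgeR adjusted p = 0.0461). In CD8+ Tnv cells with IL-7 it was at 35.1 to 42.9 CPM in WT and 17.7 to 44.7 CPM in BBA (-0.33, SE 0.39), where the groups overlapped and the gene was not called.

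AAB CD4+ cells with IL-7 had 1 call among 33 genes, Xaf1, at 35.7 and 37.5 CPM against 11.4, 13.5 and 12.8 CPM in WT (log2 fold change 1.53, SE 0.17, edgeR adjusted p = 0.00702, all genes 0.637%), and it was lost without AAB replicate 3. BBA libraries held 36.0, 48.2 and 31.0 CPM of Xaf1. Compared directly with BBA, AAB cells were lower for 8 of 33 genes and higher for 0 (median -0.61, all genes 1.57%). The 8 were Cmpk2 (-2.57, SE 0.53), which passed the filter only through BBA, Rtp4 (-1.76, SE 0.29), Irf7 (-1.20, SE 0.24), Parp9, Dtx3l, Samd9l, Irf9 and Parp14. This count was 1 without AAB replicate 3.

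Among the 32 genes tested in both lineages, 28 had a positive and 3 a negative fold change of BBA over WT with IL-7 in both. The 8 shared calls, all higher, were 88.9% of the 9 CD8+ calls and 53.3% of the 15 CD4+ calls among these 32 genes. These shares count calls in either direction. Over all 9346 genes tested in both, the same shares were 63.8% of the 265 CD8+ calls and 33.5% of the 504 CD4+ calls. For higher calls alone, 67.3% of the 110 CD8+ genes also rose in CD4+ cells, and 28.2% of the 262 CD4+ genes did so in CD8+ cells. Across genes, which are not independent replicates, the fold changes had a Pearson correlation of 0.90 and a Spearman correlation of 0.92 among the 32, against 0.74 and 0.68 over all 9346 genes. The 2 lineages share no library, but the labels do not show whether they share mice.

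**Figure D3:**
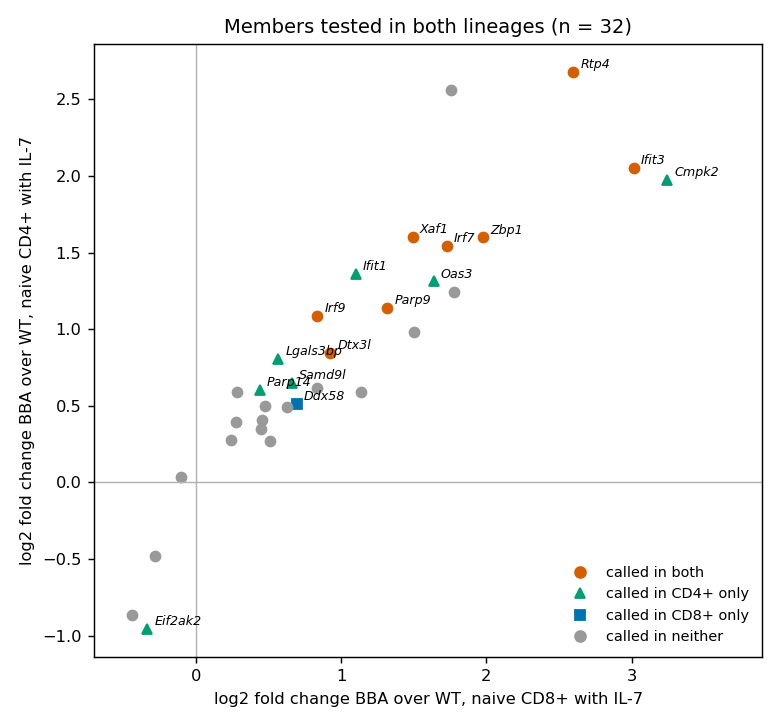
Log2 fold change of BBA over WT with IL-7 in naive CD8+ cells (horizontal axis) and in naive CD4+ cells (vertical axis) for the 32 genes tested in both, each point 1 gene, with colour and shape for the lineage in which it was called. Rtp4 (2.60 and 2.68), Ifit3 (3.02 and 2.05) and Cmpk2 (3.25 and 1.98) lie at the upper right, and Eif2ak2 is at the lower left.

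Summed levels of several marker lists also differed between WT and BBA. The NK cell list (Ncr1, Klrb1c, Klra8, Klre1, Eomes and Tyrobp) shares Eomes with the list of memory and effector T cell markers. The plasmacytoid dendritic cell list was Siglech, Ccr9, Tcf4, Klk1, Cox6a2 and Pacsin1. Sums do not show which cells the reads came from. In CD8+ Tnv libraries with IL-7 the 6 B cell markers summed to 9.21 to 16.0 CPM in WT and 32.5 to 54.7 CPM in BBA, the 6 NK cell markers to 21.9 to 41.7 and 170.0 to 273 CPM, and the 6 plasmacytoid dendritic cell markers to 111 to 117 and 228 to 326 CPM, with Klk1 and Cox6a2 at 0 in both genotypes. In CD4+ libraries with IL-7 they summed to 6.36 to 10.8 and 13.7 to 59.7 CPM for B cells, 0.449 to 1.85 and 26.0 to 29.5 CPM for NK cells (Klra8 at 0 in both), and 60.7 to 80.4 and 98.6 to 135 CPM for plasmacytoid dendritic cells (Klk1 at 0 in both). Their part in the result was not tested. The myeloid markers overlapped between WT and BBA in CD4+ libraries, at 29.2 to 47.3 and 33.8 to 47.5 CPM.

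Whether the BBA effect differed between cultures was tested as an interaction, and for several genes it did. With IL-7 the BBA over WT fold change of CD8+ Tnv cells exceeded that without cytokine for 4 of 38 genes and fell short for 0 (median log2 difference 0.53, all genes 2.46%). They were Ifit3 (2.65, SE 0.56), Zbp1 (1.45, SE 0.20), Irf7 (1.39, SE 0.22) and Parp9 (0.98, SE 0.18), at edgeR adjusted p-values of 0.0377, 0.0101, 0.0132 and 0.0250, and between 0 and 4 were called with 1 library left out. In CD4+ Tnv cells the same difference was called for 2 of 38 genes (median 0.47, all genes 1.1%), Rtp4 at 2.36 (SE 0.33, edgeR adjusted p = 0.00198) and Irf9 at 0.83 (SE 0.13, edgeR adjusted p = 0.00564), with 2 to 4 called in refits. With IL-15 the BBA effect in CD8+ Tnv cells was smaller than with IL-7 for 4 of 32 genes (Zbp1 -1.80, Irf7 -1.69, Parp9 -1.36 and Ddx58 -0.88, median -0.74, all genes 1.05%). In refits 0 to 3 were called, with 2 and a median of -0.60 without WT IL-15 replicate 2. Zbp1 was at 49.98 and 60.7 CPM in WT and 58.8 and 64.0 CPM in BBA with IL-15, where the groups overlapped. Compared with no cytokine, the IL-15 difference was called for 1 of 38 genes, Ifi35 (-0.72, SE 0.14, median of 38 genes -0.14), near the share over all genes (2.42%). In CD8+ cells the culture with IL-7 and male sex cannot be told apart in these interactions.

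Without cytokine the order of the genotypes was different. In naive CD8+ cells most genes were higher in AAB than in WT libraries, and the mean level over the 39 genes was 4.92 and 5.01 in WT, 5.58 and 5.82 in AAB and 5.34 and 5.40 in BBA on the log2(CPM + 0.5) scale. The groups did not overlap. Only Oas2 was called in AAB, from 14.3 and 17.7 CPM in WT to 57.7 and 48.01 CPM (log2 fold change 1.72, SE 0.17, edgeR adjusted p = 0.0168), but 31 of 38 genes were higher and 0 lower at an unadjusted p under 0.05, against 4.01% higher and 3.84% lower of all genes (called 0.164%, median of the 38 genes 0.55). DESeq2 called 14 of them higher. Under the replicate block edgeR called 14 higher and 0 lower. BBA cells had 3 calls of 38 (median 0.36, all genes 2.75%): Rsad2, the gene of viperin (1.82 and 2.42 CPM against 5.17 and 6.48 CPM, 1.46, SE 0.28), Epsti1 (88.5 and 93.7 against 197 and 188 CPM, 1.08, SE 0.10, edgeR adjusted p = 0.00333) and Oas2 (25.4 and 32.8 CPM in BBA, 0.87, SE 0.17). Leaving out 1 library gave 0 (WT replicate 2 or AAB replicate 1) to 5 calls (AAB replicate 2) for AAB and 1 or 2 for BBA. The replicate block gave 6 higher for BBA. In the fit over all CD8+ libraries 0 were called for either. Between AAB and BBA edgeR called 0 of 38 with 16 higher and 1 lower in AAB at an unadjusted p under 0.05, and DESeq2 called 4 (median 0.29, all genes 0.523%). The replicate block gave 5 higher and 1 lower there.

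Memory CD8+ cells without cytokine had the same direction for AAB. The labels do not show whether the cell states came from the same mice, so this need not be an independent repeat. Same-numbered WT libraries correlated between states after centring each group, at 0.544 for Tnv and Tcm, 0.553 for Tnv and Tem and 0.696 for Tcm and Tem cells. In Tcm cells 25 of 39 genes were higher and 0 lower in AAB than in WT at an unadjusted p under 0.05 (median log2 fold change 0.50), edgeR called 0, or 7 higher with the replicate block, and DESeq2 5, and 0.039% of all genes were called, with 2.2% higher and 1.64% lower of all genes unadjusted. In Tem cells 25 of 39 were higher and 0 lower (median 0.53), edgeR called 0, or 7 higher with the replicate block, and DESeq2 8 (all genes 0.0198%, unadjusted 4.27% higher and 3.74% lower). BBA memory cells were closer to WT, with medians of 0.08 in Tcm cells (edgeR 0, 1 with the replicate block, unadjusted 6 higher and 0 lower, DESeq2 0, all genes 0.283%) and 0.07 in Tem cells (edgeR 0, unadjusted 1 higher and 0 lower, DESeq2 1, all genes 0.208%). AAB exceeded BBA with medians of 0.49 in Tcm cells (edgeR 0, 6 higher with the replicate block, unadjusted 19 higher and 0 lower, DESeq2 2, all genes 0.039%) and 0.41 in Tem cells (edgeR 0, 2 higher with the replicate block, unadjusted 22 higher and 1 lower, DESeq2 5, all genes 0.0198%). Usp18, which removes ISG15 and blocks the interferon receptor, is an example, at 21.7 and 21.3 CPM in WT, 73.4 and 45.9 CPM in AAB and 20.4 and 22.9 CPM in BBA Tem cells.

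In naive CD4+ cells without cytokine Zbp1 rose in both mutants, from 116, 116 and 118 CPM in WT to 188 and 188 CPM in AAB (log2 fold change 0.69, SE 0.08, edgeR adjusted p = 0.00798) and 199 and 207 CPM in BBA (0.80, SE 0.08, edgeR adjusted p = 0.00214). The mutants overlapped with no WT library. Xaf1 rose in AAB, from 27.6, 29.2 and 27.3 CPM to 149 and 81.4 CPM (2.04, SE 0.22, edgeR adjusted p = 0.00798), whereas BBA held 37.5 and 35.3 CPM. These and the decrease of Eif2ak2 in BBA were the calls: 2 of 38 higher in AAB (unadjusted 19 higher and 1 lower, median 0.31, all genes 0.355%) and 1 higher and 1 lower in BBA (unadjusted 11 higher and 1 lower, median 0.21, all genes 1.13%). AAB against BBA gave 0 calls by edgeR, 1 with the replicate block and 2 by DESeq2, with 4 higher and 1 lower unadjusted (median 0.05, all genes 0.0788%). With 1 library left out, 1 to 3 genes were called in AAB (1 without WT replicate 1 or AAB replicate 1) and 1 or 2 in BBA. Ly6e was at 80.4 CPM in 1 AAB library and 444 CPM in the other. It was at 417 to 633 CPM in WT and 344 to 399 CPM in BBA. The AAB libraries were far apart and the higher one overlapped with WT.

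**Figure D4:**
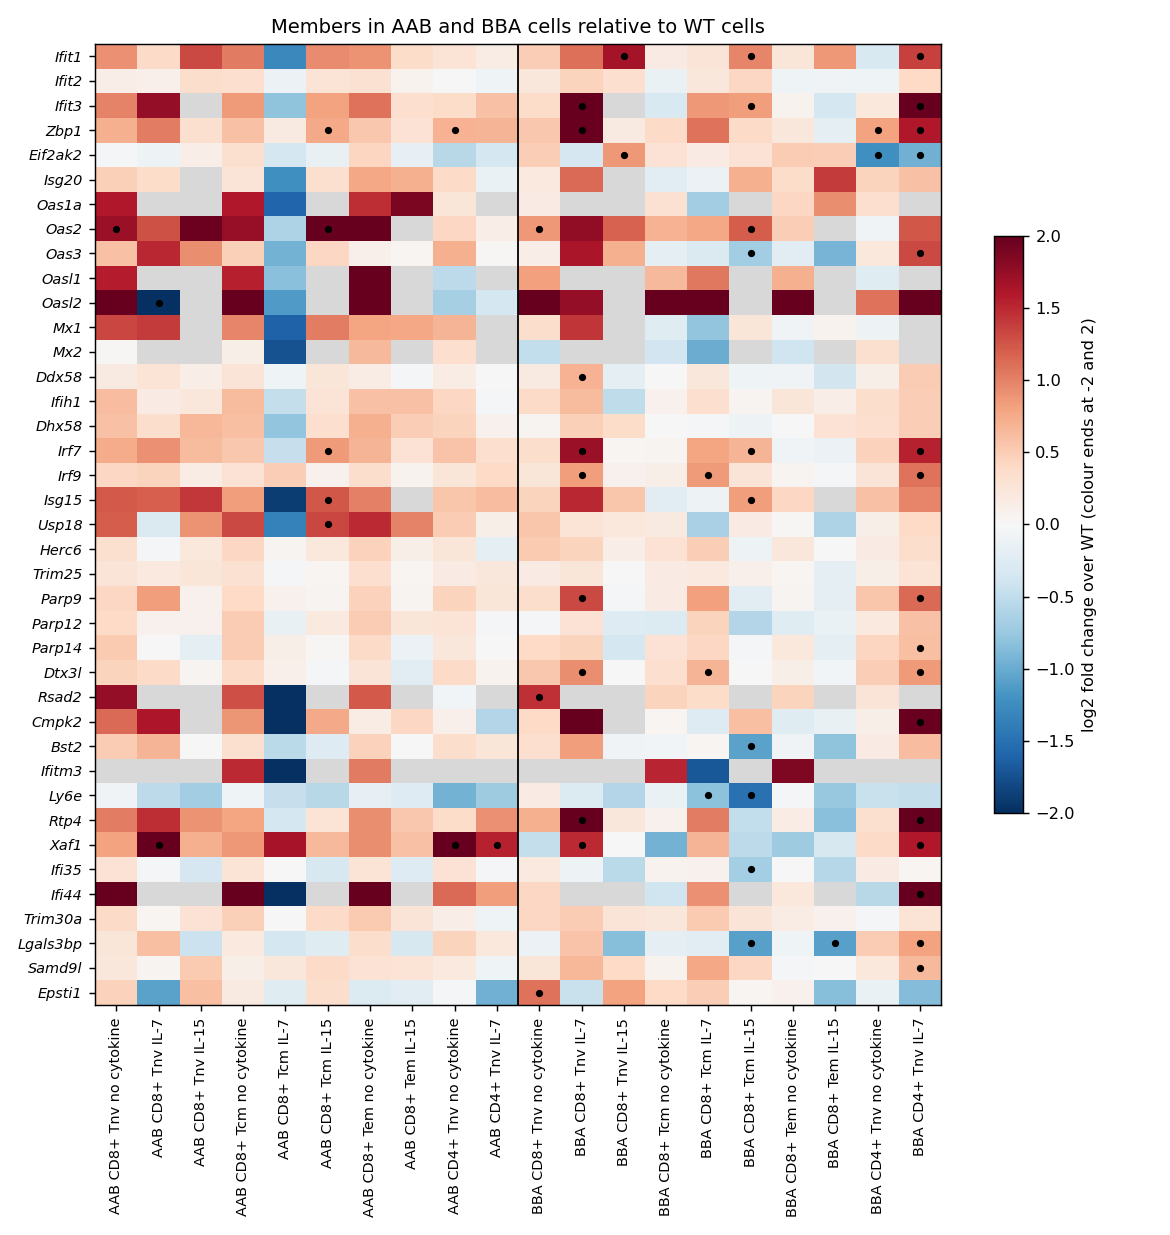
Log2 fold change over WT of each of the 39 genes (rows) in AAB (left) and BBA (right) cells, by lineage, state and cytokine (columns); colour ends at -2 and 2, a dot marks a call and grey a gene that did not pass the filter on low counts. The BBA columns for naive cells with IL-7 hold 9 calls in CD8+ and 16 in CD4+ cells, 15 of the latter in the upward direction.

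With IL-15 the mean level of the 39 genes was higher in AAB than in WT without overlap, by 0.55 in Tnv, 0.48 in Tcm and 0.30 in Tem cells on the log2(CPM + 0.5) scale. BBA differed from WT by 0.33, 0.15 and -0.078, also without overlap, so that BBA lay below WT in Tem cells. AAB and BBA overlapped in Tnv cells but not in Tcm or Tem cells. Of the genes tested, 23 of 28, 26 of 32 and 22 of 31 had a positive fold change in AAB, against 18 of 28, 19 of 32 and 9 of 31 in BBA. 1 of the 2 WT Tnv libraries, replicate 2, stood apart by its lineage markers: the CD4 lineage markers (Cd4, Zbtb7b and Cd40lg) summed to 328 CPM against 8.49 to 18.6 CPM in the other 5 Tnv libraries with IL-15, and Cd8a with Cd8b1 to 1216 against 1912 to 2099 CPM.

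In naive CD8+ cells with IL-15 BBA had 2 calls of 28 (median log2 fold change 0.10), in a comparison in which 9.6% of all genes were called: Ifit1, at 4.68 and 3.55 CPM in WT and 11.1 and 14.4 CPM in BBA (1.66, SE 0.34, edgeR adjusted p = 0.0234), and Eif2ak2, given above. At an unadjusted p under 0.05, 5 were higher and 4 lower, and without either BBA library 0 were called. Without WT replicate 2 BBA had 0 higher and 1 lower (median 0.092), and without WT replicate 1 it had 1 higher and 0 lower (median 0.11). In AAB edgeR called 0 of 28 and DESeq2 3 (unadjusted 8 higher and 2 lower, median 0.26, 0.32 and 0 calls without WT replicate 2, all genes 0.908%), and between AAB and BBA edgeR and DESeq2 called 0 (unadjusted 3 higher and 1 lower, median 0.19, all genes 0.0699%).

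In Tcm cells with IL-15 members went both ways in BBA, as did all genes (11.1% rose, 12.3% fell, 23.5% called). At an unadjusted p under 0.05, 10 members were higher and 6 lower, against 23.9% higher and 25.4% lower of all genes. Of 32 members 5 rose and 5 fell (median 0.07), near the shares over all genes. Those that rose were Oas2 (1.21, SE 0.31), Ifit1 (0.97, SE 0.26), Ifit3 (0.84, SE 0.23), Isg15 (0.84, SE 0.27), the ubiquitin-like modifier, and Irf7 (0.67, SE 0.18). Those that fell were Ly6e (-1.49, SE 0.11, edgeR adjusted p = 2.27e-04), Lgals3bp (-1.09, SE 0.13), Bst2 (-1.07, SE 0.10), Oas3 (-0.70, SE 0.14) and Ifi35 (-0.67, SE 0.09). Ly6e was at 309.7 and 267 CPM in WT, 195 and 193 CPM in AAB and 95.0 and 107 CPM in BBA, with no overlap among the 3 groups. Lgals3bp was at 193 and 187 CPM in WT, 139.7 and 179 CPM in AAB and 84.1 and 91.2 CPM in BBA. Isg15 was low throughout, at 3.12 and 2.70 CPM in WT, 6.56 and 7.09 CPM in AAB and 5.47 and 4.79 CPM in BBA. With all genes used to set the TMM factors, an alternative chosen after seeing the data in which the median of all genes was -0.24, the split in BBA was 1 higher and 6 lower. Leaving out 1 library left 6 to 8 calls, of which 0 to 2 were higher. The B cell markers of these libraries summed to 97.0 to 184 CPM in WT and 208 to 435 CPM in BBA, and their part in the result was not tested.

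AAB Tcm cells with IL-15 had 5 calls of 32, all higher (unadjusted 14 higher and 3 lower, median 0.30, all genes 4.45%). Of all genes 10.6% were higher and 14.6% lower there at an unadjusted p under 0.05. Oas2 went from 2.77 and 2.95 CPM in WT to 9.51 and 13.3 CPM in AAB (2.01, SE 0.30, edgeR adjusted p = 0.0144), with BBA at 5.08 and 7.85 CPM. Usp18 (1.34, SE 0.19), Isg15 (1.24, SE 0.26), Irf7 (0.85, SE 0.17) and Zbp1 (0.75, SE 0.10) were the others, and the number called with 1 library left out was 1 (without WT replicate 1) to 3. Under the replicate block 8 were higher. AAB exceeded BBA for Usp18, Oas3, Ly6e, Lgals3bp and Bst2 (5 higher and 0 lower of 32, median 0.31, all genes 5.84%), led by Usp18 at 1.17 (SE 0.19), with 15 higher and 0 lower unadjusted, 3 to 5 called in refits and 8 higher under the replicate block. The BBA effect with IL-15 was lower than that without cytokine for Ly6e (-1.32, SE 0.17, edgeR adjusted p = 0.00244), Bst2 (-0.99, SE 0.19), Lgals3bp (-0.89, SE 0.20) and Ifi35 (-0.71, SE 0.12), and higher for 0 of 39 genes (median 0.03, all genes 7.64%), and 2 to 4 of these were called in refits.

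In Tem cells with IL-15 Lgals3bp fell in BBA, from 147 and 109 CPM in WT to 54.5 and 62.9 CPM (-1.09, SE 0.16, edgeR adjusted p = 0.0416), the 1 call of 31 (unadjusted 1 higher and 8 lower, median -0.14, all genes 1.81%), and it was lost whichever library was left out. The replicate block gave 1 higher and 6 lower. In AAB edgeR and DESeq2 called 0 of 31 (unadjusted 2 higher and 0 lower, median 0.24, all genes 0.0199%). AAB against BBA gave 0 by edgeR, 5 higher under the replicate block and 4 by DESeq2 (unadjusted 10 higher and 1 lower, median 0.38, all genes 0.00997%). The difference between this BBA effect and that without cytokine was called for 0 of 39 genes by edgeR and 2 by DESeq2, with 1 higher and 7 lower unadjusted (median -0.18, all genes 0.00966%).

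Tcm cells with IL-7 rest on WT libraries that stood apart, and both of these were male whereas AAB and BBA held 1 female and 1 male library each. BBA had 2 of 39 genes higher and 1 lower (unadjusted 10 higher and 1 lower, median 0.34, all genes 3.08%). Irf9 was at 107 and 79.1 CPM in WT and 158 and 161 CPM in BBA (0.85, SE 0.17, edgeR adjusted p = 0.0499), Dtx3l at 201 and 209 CPM in WT and 309 and 315 CPM in BBA (0.68, SE 0.13), and Ly6e at 260.0 and 225 CPM in WT and 129 and 132 CPM in BBA (-0.82, SE 0.14). These did not overlap between genotypes. Without WT replicate 1 the calls were 12 higher and 1 lower, without WT replicate 2 they were 4 higher and 2 lower, and without either BBA library or with a term for sex they were 0. In AAB edgeR called 0 of 39 and DESeq2 1, with 2 higher and 2 lower unadjusted (median -0.46, all genes 0.0589%), and without WT replicate 2 14 were lower. AAB against BBA gave 0 calls by both tools, with 1 higher and 9 lower unadjusted (median -0.74, all genes 0.0884%). The difference between the BBA effect with IL-7 and that without cytokine was called for 0 of 39 by edgeR (unadjusted 3 higher and 1 lower, DESeq2 2, median 0.12, all genes 0.114%), as was that between IL-15 and IL-7 (unadjusted 0 higher and 9 lower, DESeq2 3, median -0.25, all genes 0.126%).

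WT cells without cytokine also differed a little between states. In Tcm over Tnv cells 3 of 37 genes rose and 0 fell (median log2 fold change 0.11, all genes 2.78%): Rsad2 (1.41, SE 0.26), Mx1 (1.38, SE 0.17) and Epsti1 (0.72, SE 0.11). Mx1 was at 7.75 and 6.505 CPM in Tnv, 18.8 and 18.7 CPM in Tcm and 38.0 and 30.6 CPM in Tem cells, with no overlap. In Tem over Tcm cells 2 of 37 rose, Cmpk2 (0.91, SE 0.16) and Mx1 (0.90, SE 0.16), and 0 fell (median 0.03, all genes 1.95%). Both counts were 0 in a fit over all CD8+ libraries, and leaving out 1 library gave 0 to 3 calls (0 without either Tnv library) for the first and 0 for the second. The replicate block gave 5 higher for the first.

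In the transduced AAB cells CA-STAT5A went with lower levels of a few of the genes. Stat5a itself was higher with the CA-STAT5A vector (log2 fold change 3.36, SE 0.38, edgeR adjusted p = 0.00653). Of 34 genes tested 4 fell and 0 rose (unadjusted 2 higher and 17 lower, median -0.43, all genes 6.63%). Ly6e was at 65.7 and 52.6 CPM with the control and 19.5 and 14.5 CPM with CA-STAT5A (-1.79, SE 0.20, edgeR adjusted p = 0.00653). Oas1a was at 13.5 and 16.0 CPM with the control and 6.34 and 4.25 CPM with CA-STAT5A (-1.46, SE 0.27, edgeR adjusted p = 0.0258). Ifih1, the gene of the RNA sensor MDA5, was at 27.6 and 26.2 against 13.0 and 15.6 CPM (-0.91, SE 0.16), and Bst2 at 28.9 and 35.7 against 16.9 and 17.8 CPM (-0.89, SE 0.17). None of the 4 overlapped between vectors. The number called was 2 without CA-STAT5A replicate 1, 5 without control replicate 1 and 7 without replicate 2 of either vector. Each vector had 1 male and 1 female library, and with a term for sex, chosen after seeing the data, 1 rose and 11 fell. The B cell markers of these libraries summed to 99.4 to 159.6 CPM with the control and 10.1 to 27.2 CPM with CA-STAT5A, and the myeloid markers to 614 to 821 and 1292 to 1436 CPM. Their part in the result was not tested.

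**Figure D5:**
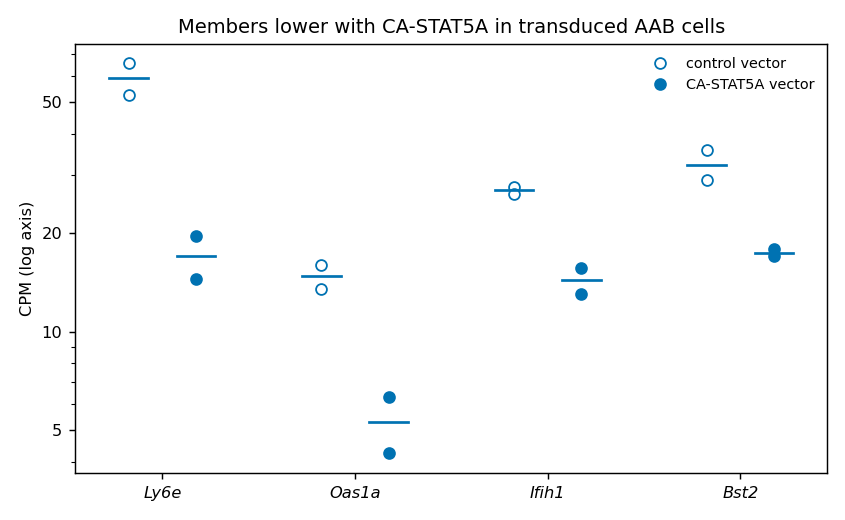
CPM (log axis) of Ly6e, Oas1a, Ifih1 and Bst2 in the 4 libraries of transduced AAB cells (points, open for control vector and filled for CA-STAT5A) with the mean of each vector (bars). All points with CA-STAT5A lie below those with the control, for Ly6e at 19.5 and 14.5 against 65.7 and 52.6 CPM.

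The rest of the pathway was followed through lists of ligands, receptor, transducers and further targets. The 18 type I interferon genes were near 0 in all 67 libraries: 13 counts was the highest count of any of them in a library, 1.42 CPM the highest level, and Ifnb1 had 21 counts in all, spread over 14 libraries, so that 0 of the 18 were tested. Ifnar1 and Ifnar2 were at 182 to 345 and 34.0 to 149 CPM across T cell groups, and neither was called in a comparison of genotypes. The 4 genes for the receptor and its kinases had median log2 fold changes of 0.15 and 0.04 in BBA CD8+ and CD4+ Tnv cells with IL-7, and none was called by edgeR.

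Stat2, a transducer of the type I interferon receptor, rose with IL-7 in BBA Tnv cells (log2 fold change of BBA over WT 0.73, SE 0.12 in CD8+ and 0.82, SE 0.12 in CD4+ cells), as did Irf1 (1.19, SE 0.14 and 1.10, SE 0.12). Stat2 also rose in BBA CD4+ Tnv cells without cytokine (0.61, edgeR adjusted p = 0.0173), so its increase was not limited to IL-7. Socs1, an inhibitor of JAK kinases, fell in BBA CD4+ cells with IL-7 (-1.01, SE 0.08) and in BBA CD8+ cells with IL-15 (-1.33 in Tnv, -1.39 in Tcm and -1.54 in Tem cells), and of 8 inhibitors it was the only one called in BBA naive cells with IL-7.

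Of 43 further interferon-induced genes, 3 of 35 tested rose in BBA CD8+ Tnv cells with IL-7 (median log2 fold change 0.37) and 7 of 33 rose in CD4+ cells (median 0.31), with 0 lower in both. Of 19 genes with a strong response to interferon gamma, which include Irf1 and Socs1, 12 of 16 tested rose in CD8+ cells (median 1.39, among them Gbp2 to Gbp7, Gbp9, Irgm1 and Irgm2) and 14 of 16 rose in CD4+ cells with Socs1 falling (median 1.496). The members had medians of 0.83 and 0.65 in the same comparisons, in which 1.15% and 2.89% of all genes tested rose. The lists and the members were chosen with earlier results of these data known, so these counts and medians are descriptive. Whether an interferon was at work was not tested. Ifng itself had counts in 60 of the 67 libraries, and 104 CPM was its highest level in any of them. Its levels by genotype are not given here.

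Over the 20 comparisons of AAB or BBA with WT, 26 of the 39 genes (66.7%) were called at least once, against 3137 of the 11540 genes tested in at least 1 of them (27.2%). Among genes tested in all 20 these shares were 19 of 26 members (73.1%) and 2220 of 8754 (25.4%). Xaf1 and Zbp1 were called higher in 5 comparisons each, Oas2 and Irf7 in 4 each, and Ly6e had a negative fold change in 19 of 20. The 13 genes never called were Ifit2, Isg20, Oas1a, Oasl1, Mx1, Mx2, Ifih1, Dhx58, Herc6, Trim25, Parp12, Trim30a and Ifitm3, of which Ifitm3, a barrier to virus entry, was tested in 6 comparisons and Trim25, Ifit2, Herc6, Trim30a, Dhx58, Ifih1 and Parp12 in all 20. Trim25 and Ifit2, at abundances of 118 to 120.3 and 41.9 to 43.4 CPM in WT CD8+ Tnv cells without cytokine, had log2 fold changes within 0.34 and 0.45 of 0 in all 20. Oas2, Ifit3, Isg15, Oasl2, Cmpk2, Ifi44, Rsad2, Ifitm3, Oasl1, Oas1a, Mx2, Mx1 and Isg20 did not pass the filter on low counts in some of the 20, so that their counts of calls rest on fewer comparisons.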

How the data were processed

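Poly(A) RNA of sorted T cells had been sequenced, and the deposited tables hold raw counts per gene symbol made by the authors. The submitters' processing notes name TopHat2, Cufflinks, HTSeq and build mm9, without versions, and the study's methods name mm10. The strand setting of the counting is not given in the sources used here. In the table of transduced cells, rows that name no gene held 67.0% to 68.4% of the counts and were left out of library sizes and tests.

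Counts were analysed in R 4.3.3 with edgeR 4.0.16 (quasi-likelihood test, TMM) for each cell type and culture, with Benjamini-Hochberg adjustment over all genes tested. A gene was called at an adjusted p under 0.05 and a fold change over 1.5. In the comparisons of genotypes, 1.47% to 23.9% of all genes were higher and 1.64% to 25.4% lower at an unadjusted p under 0.05. A gene was tested where its highest normalised count in any library of the fit exceeded a threshold chosen by the similarity of replicates, the rule of HTSFilter, among 100 thresholds from 1 to 200. Genes that passed are therefore not all genes listed, and a gene may have passed through the group in which it was high. Levels are CPM on TMM-normalised totals, and means over the 39 genes use log2(CPM + 0.5). Differences in BBA effect between cultures were tested as an interaction. Replicate libraries differed by more than sampling noise in all 38 pairs (chi-square per degree of freedom 5.50 to 93.2). The study's methods describe replicates as separate mice, assayed over several trials, but the labels tie no library to a mouse or trial, so p-values measure the spread between libraries. After centring each group, libraries that carry an equal number correlated over 0.1 for all pairs of groups in 7 of 10 genotype fits (0.117 to 0.788). In the other 3 they did not (lowest -0.0569). With 2 libraries a group each correlation is a single value. The fit without the block is the main one, and block counts are given beside results they move. Counting floors cover counting error only.

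On simulated data, counts drawn for BBA over WT with IL-7, 61.6% of 99 genes changed 2-fold and 89% of 100 changed 3-fold were recovered in CD8+ Tnv cells among 10538 genes, with 5 false calls, and 92.6% of 95 and 100% of 99 in CD4+ Tnv cells among 9294 genes, with 7 false calls. The simulated spread between replicates followed the mean level of a gene alone, without spread particular to a gene or trial. These shares therefore need not hold for the real libraries. Alternatives were DESeq2 1.42.0, its size factors, no filter, 1 fit over all libraries, a replicate block, a sex term, each library left out, another pseudocount and plain totals, and, chosen after seeing the data, TMM factors over all genes and a sex term between vectors.

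The genes and lists were chosen with earlier results of these data known. Values in every library are given for the 12 genes called in the most comparisons of AAB or BBA with WT, and the called gene with the largest fold change in each direction of a comparison is named as well. Other genes were named after their values were seen. A pair of CD4+ libraries whose title and treatment label disagree were not assigned to a group. 1 gene of the pathway lists is not reported here.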

Additional observations from a re-analysis of the deposited data

Results flagged for a closer look

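The results below were selected because a test of the difference itself, the interaction of genotype with culture in the quasi-likelihood test of edgeR, adjusted by the Benjamini-Hochberg method, was called: the log2 fold change of BBA over WT differed between cultures of the same cells. In naive CD8+ cells it was larger with IL-7 than without cytokine for Ifit3 by 2.65 (SE 0.56), for Zbp1 by 1.45 (SE 0.20), for Irf7 by 1.39 (SE 0.22) and for Parp9 by 0.98 (SE 0.18). These were 4 of 38 genes, where 2.46% of all genes were called. Mean CPM of WT and BBA were 51.8 and 206 for Zbp1 with IL-7 and 116 and 169 without cytokine.

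In naive CD4+ cells it was larger with IL-7 for Rtp4 by 2.36 (SE 0.33), whose means were 6.27 CPM in WT and 40.9 CPM in BBA with IL-7 and 31.9 and 39.6 CPM without cytokine, and for Irf9 by 0.83 (SE 0.13). These were 2 of 38 genes, where 1.1% of all genes were called.

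With IL-15 in naive CD8+ cells, the difference from IL-7 was -1.80 for Zbp1, -1.69 for Irf7, -1.36 for Parp9 and -0.88 for Ddx58 (4 of 32 genes, all genes 1.05%). The difference from no cytokine was called for 1 of 38 genes, near the share over all genes (2.42%). It was -0.72 for Ifi35, whose means were 65.3 CPM in WT and 44.1 CPM in BBA with IL-15. WT replicate 2 with IL-15 held CD4 lineage markers at 328 CPM.

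In Tcm cells the difference of IL-15 from no cytokine was -1.32 for Ly6e, -0.99 for Bst2, -0.89 for Lgals3bp and -0.71 for Ifi35 (4 of 39 genes, all genes 7.64%). Ly6e had means of 288 CPM in WT and 101 CPM in BBA with IL-15, and 202 and 179 CPM without cytokine. All CD8+ Tnv libraries with IL-7 were male and those of the other cultures female, so that culture and sex cannot be told apart in the comparisons with IL-7.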

How the results depend on the processing

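Among 172 called results of single members, none changed direction under any alternative. The BBA increase with IL-7 was called under each tool, scaling and fit, for 9 or more genes in CD8+ and 15 or more in CD4+ naive cells, but in CD8+ cells it fell to 0 or 1 calls with any library left out. Most groups held 2 libraries, which limits what the tests can call, and the values of low genes such as Mx1, Rsad2 and Oasl2 rest on few reads. The causes of the shifts below were not tested, apart from leave-one-out and unfiltered fits, which change the number of libraries or genes.

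The numbers of members called that moved by over 1.5 times are given here. With DESeq2 they were 1 in CD8+ Tcm IL-7 AAB over WT and CD8+ Tem NC BBA over WT, 2 in CD8+ Tcm NC AAB over BBA, CD4+ Tnv NC AAB over BBA, CD4+ Tnv IL-7 AAB over WT, the CD8+ Tcm BBA effect of IL-7 less NC and the CD8+ Tem BBA effect of IL-15 less NC, 3 in CD8+ Tnv IL-15 AAB over WT, WT CD8+ Tcm IL-15 over NC and the CD8+ Tcm BBA effect of IL-15 less IL-7, 4 in CD8+ Tnv NC AAB over BBA, CD8+ Tnv IL-15 BBA over WT, CD8+ Tem IL-15 AAB over BBA and the CD8+ Tnv BBA effect of IL-15 less NC, 5 in CD8+ Tnv NC BBA over WT, CD8+ Tnv IL-7 AAB over BBA, CD8+ Tcm NC AAB over WT, CD8+ Tcm IL-7 BBA over WT, CD8+ Tem NC AAB over BBA and Tcm over Tnv, 7 in CD8+ Tnv IL-7 AAB over WT and CD8+ Tem IL-15 BBA over WT, 8 in CD8+ Tem NC AAB over WT and the CD8+ Tnv BBA effect of IL-7 less NC, 9 in the CD4+ Tnv BBA effect of IL-7 less NC, 10 in the CD8+ Tnv BBA effect of IL-15 less IL-7, 12 in CA-STAT5A over control, 13 in CD4+ Tnv IL-7 AAB over BBA and WT CD8+ Tem IL-15 over NC, 14 in CD8+ Tnv NC AAB over WT and CD8+ Tnv IL-7 BBA over WT.

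Without a filter on low counts they were 2 in CD8+ Tnv IL-15 AAB over WT, WT CD8+ Tcm IL-7 over NC and the CD8+ Tnv BBA effect of IL-15 less NC, 3 in CD8+ Tcm NC BBA over WT and CD8+ Tem NC BBA over WT, 4 in CD4+ Tnv NC BBA over WT and CD4+ Tnv NC AAB over BBA, 5 in CD8+ Tem IL-15 BBA over WT, CD4+ Tnv NC AAB over WT and Tcm over Tnv, 6 in CD8+ Tnv NC BBA over WT, 7 in the CD4+ Tnv BBA effect of IL-7 less NC, 8 in CD8+ Tnv IL-15 BBA over WT, CD8+ Tcm IL-15 AAB over BBA and the CD8+ Tnv BBA effect of IL-15 less IL-7, 9 in CD8+ Tnv IL-7 AAB over BBA and CD8+ Tcm IL-15 AAB over WT, 10 in CD8+ Tnv NC AAB over BBA and CD8+ Tcm IL-7 AAB over WT, 11 in CD8+ Tcm IL-7 BBA over WT, 12 in CD8+ Tcm NC AAB over WT and CD8+ Tem NC AAB over BBA, 13 in CD8+ Tcm NC AAB over BBA and CD8+ Tcm IL-7 AAB over BBA, 14 in CD8+ Tnv IL-7 AAB over WT, 15 in CD8+ Tem NC AAB over WT, the CD8+ Tnv BBA effect of IL-7 less NC and CA-STAT5A over control, 17 in WT CD8+ Tem IL-15 over NC, 18 in CD8+ Tnv NC AAB over WT and WT CD8+ Tcm IL-15 over NC, 20 in CD8+ Tnv IL-7 BBA over WT.

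With one fit over all libraries they were 0 in CD8+ Tnv NC AAB over WT, CD8+ Tnv NC BBA over WT, CD8+ Tcm IL-15 AAB over WT, WT CD8+ Tem IL-15 over NC, Tcm over Tnv and Tem over Tcm, 1 in CD8+ Tnv IL-15 BBA over WT, CD8+ Tcm IL-7 AAB over BBA, the CD8+ Tcm BBA effect of IL-7 less NC, the CD8+ Tcm BBA effect of IL-15 less IL-7, CD4+ Tnv NC AAB over WT, CD4+ Tnv NC BBA over WT and CD4+ Tnv NC AAB over BBA, 2 in CD8+ Tnv IL-7 AAB over BBA, CD8+ Tcm IL-15 AAB over BBA, the CD8+ Tnv BBA effect of IL-7 less NC, the CD8+ Tnv BBA effect of IL-15 less NC and the CD8+ Tcm BBA effect of IL-15 less NC, 3 in CD8+ Tcm IL-7 AAB over WT and CD8+ Tem IL-15 BBA over WT, 4 in CD8+ Tnv IL-7 AAB over WT and CD8+ Tcm IL-15 BBA over WT, 7 in CD8+ Tcm IL-7 BBA over WT and the CD8+ Tnv BBA effect of IL-15 less IL-7, 9 in WT CD8+ Tcm IL-15 over NC.

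With DESeq2 size factors in edgeR the number was 2 in the CD8+ Tnv BBA effect of IL-15 less NC. With TMM factors over all genes, chosen after seeing the data, they were 0 in CD8+ Tem IL-15 BBA over WT, 1 in CD8+ Tnv NC AAB over BBA, CD8+ Tnv IL-15 AAB over WT, CD8+ Tcm IL-7 BBA over WT and Tem over Tcm, 2 in the CD8+ Tnv BBA effect of IL-15 less NC, 4 in CD8+ Tnv IL-15 BBA over WT, 9 in CD8+ Tcm IL-15 AAB over BBA, 17 in WT CD8+ Tem IL-15 over NC. With a sex term the number was 0 in CD8+ Tcm IL-7 BBA over WT.

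Correlations of same-numbered deviations exceeded 0.1 for all pairs of groups in 7 of the 10 genotype fits, but each CD8+ comparison holds only 2 numbers and the labels give the numbers no meaning, so that the pairing rests on a hint from the data. For WT CD4+ cells the lowest was -0.0243, with 4 of 6 libraries (WT without and with IL-7) and 5 of 6 (WT and BBA with IL-7) correlating best with their own number. With the number as a replicate block the counts were 0 in CD8+ Tcm IL-7 BBA over WT, 1 in CD8+ Tcm NC BBA over WT and CD4+ Tnv NC AAB over BBA, 2 in CD8+ Tem NC AAB over BBA, 3 in CD8+ Tnv IL-7 AAB over BBA and the CD8+ Tnv BBA effect of IL-15 less NC, 4 in CD8+ Tnv IL-15 BBA over WT, 5 in CD8+ Tnv IL-7 AAB over WT, CD8+ Tem IL-15 AAB over BBA, the CD4+ Tnv BBA effect of IL-7 less NC and Tcm over Tnv, 6 in CD8+ Tnv NC BBA over WT, CD8+ Tnv NC AAB over BBA and CD8+ Tcm NC AAB over BBA, 7 in CD8+ Tcm NC AAB over WT, CD8+ Tem NC AAB over WT and CD8+ Tem IL-15 BBA over WT, 8 in CD8+ Tcm IL-15 AAB over WT and CD8+ Tcm IL-15 AAB over BBA, 13 in CD4+ Tnv IL-7 AAB over BBA, 14 in CD8+ Tnv NC AAB over WT, 16 in WT CD8+ Tem IL-15 over NC. No paired analysis was possible by replicate number for the transduced cells because the label of 1 control library carries no number, so the 2 vectors share fewer than 2 numbers. With a sex term there, chosen after seeing the data, the number was 12 in CA-STAT5A over control.

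Leaving out 1 library at a time, in fits that assume a lone library to vary like the other groups, gave 0 to 0 in CD8+ Tem IL-15 BBA over WT, Tem over Tcm, 0 to 1 in CD8+ Tnv NC AAB over BBA, CD8+ Tnv IL-7 BBA over WT, CD8+ Tnv IL-15 BBA over WT, CD4+ Tnv IL-7 AAB over WT, 0 to 2 in CD8+ Tnv IL-7 AAB over BBA, CD4+ Tnv NC AAB over BBA, the CD8+ Tnv BBA effect of IL-15 less NC, the CD8+ Tcm BBA effect of IL-7 less NC, 0 to 3 in Tcm over Tnv, the CD8+ Tnv BBA effect of IL-15 less IL-7, 0 to 4 in the CD8+ Tnv BBA effect of IL-7 less NC, the CD8+ Tcm BBA effect of IL-15 less IL-7, 0 to 5 in CD8+ Tnv NC AAB over WT, 0 to 9 in CD8+ Tnv IL-7 AAB over WT, 0 to 13 in CD8+ Tcm IL-7 BBA over WT, 0 to 14 in CD8+ Tcm IL-7 AAB over WT, WT CD8+ Tcm IL-7 over NC, 0 to 20 in WT CD8+ Tem IL-15 over NC, 1 to 2 in CD8+ Tnv NC BBA over WT, CD4+ Tnv NC BBA over WT, 1 to 3 in CD8+ Tcm IL-15 AAB over WT, CD4+ Tnv NC AAB over WT, 1 to 8 in CD4+ Tnv IL-7 AAB over BBA, 2 to 4 in the CD8+ Tcm BBA effect of IL-15 less NC, the CD4+ Tnv BBA effect of IL-7 less NC, 2 to 7 in CA-STAT5A over control, 3 to 5 in CD8+ Tcm IL-15 AAB over BBA, 4 to 24 in WT CD8+ Tnv IL-15 over NC, 6 to 8 in CD8+ Tcm IL-15 BBA over WT, 9 to 17 in CD4+ Tnv IL-7 BBA over WT, 11 to 14 in WT CD8+ Tnv IL-7 over NC.

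With plain library totals the difference of the mean level of the 39 genes moved to 0.16 in CD8+ Tem NC BBA over WT, 0.35 in CD8+ Tem IL-15 AAB over WT, -0.0065 in CD8+ Tem IL-15 BBA over WT, 0.36 in CD8+ Tem IL-15 AAB over BBA, -0.81 in WT CD8+ Tnv IL-7 over NC, -1.12 in WT CD8+ Tnv IL-15 over NC, -0.70 in WT CD8+ Tem IL-15 over NC, -0.71 in BBA CD8+ Tcm IL-15 over NC, -0.87 in BBA CD8+ Tem IL-15 over NC.

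With log2(CPM + 1) the difference of the mean level of the 39 genes moved to 0.36 in CD8+ Tem IL-15 AAB over BBA, -0.79 in WT CD8+ Tnv IL-7 over NC, -1.11 in WT CD8+ Tnv IL-15 over NC, -0.71 in WT CD8+ Tem IL-15 over NC, -1.14 in WT CD4+ Tnv IL-7 over NC, -0.91 in BBA CD8+ Tem IL-15 over NC.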

Other observations

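For 2 CD4+ Tnv libraries the title named no cytokine and the treatment label named IL-7, and they entered no comparison. On plain library totals the mean of log2(CPM + 0.5) over the 39 genes was 5.15 in the AAB library (13485000 counts on genes) and 4.89 in the BBA library (10713500 counts).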
